A study of Mus musculus with 34 samples.

Results

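The 10 genes described here carry waste nitrogen through the liver. They are Nags, Cps1, Otc, Ass1, Asl and Arg1 of the urea cycle, its mitochondrial carriers Slc25a15 and Slc25a13, the liver glutaminase Gls2 and the second arginase Arg2. They were chosen by gene name, and 10 of 10 were found in the count table of hepatocytes, which lists 24951 genes, and in that of liver macrophages, which lists 26233. The 2 tables hold 28598 different genes.

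The series asks how loss of the coactivators YAP and TAZ from bile duct cells bears on hepatocytes and liver macrophages, with and without a toxic injury. All mice, of a mixed B6;129P background, carried floxed alleles of both Yap and Taz and received tamoxifen at 1.6 mg/kg for 5 days when 7 to 8 weeks old, then 3 weeks of washout. The knockout mice also carried Opn-CreERT2, a tamoxifen-activated Cre under the promoter of osteopontin, a gene of biliary cells, and the controls were siblings without Cre. Injured mice received carbon tetrachloride (CCl4) at 1 ml/kg and were killed 48 h later. CCl4 is turned into a radical by cytochrome P450 enzymes of the hepatocytes around the central vein. There were 6 hepatocyte libraries of uninjured controls, 5 of uninjured knockouts, 3 of injured controls and 4 of injured knockouts, and 4 macrophage libraries of each kind. Cells were hepatocytes separated on Percoll with dead cells sorted out, and cells sorted for F4/80 and CD45. The labels number the mice but do not say outright that each number is 1 animal, so the p-values measure the spread between these libraries.

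The urea cycle turns ammonia and the nitrogen of aspartate into urea. Nags makes N-acetylglutamate, without which Cps1 cannot bind ammonia into carbamoyl phosphate. Otc joins this to ornithine inside the mitochondrion, Ass1 and Asl build and split argininosuccinate in the cytosol, and Arg1 frees urea and gives ornithine back. Slc25a15 returns ornithine to the mitochondrion and Slc25a13 (citrin) supplies aspartate to Ass1. Gls2 releases ammonia from glutamine in the same cells. These cells lie in the periportal and middle part of the liver lobule, while the outermost pericentral cells capture what ammonia remains with glutamine synthetase (Glul). Arg2 is the mitochondrial arginase of tissues other than liver, and Arg1 is also made by some macrophages.

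Levels below are CPM, counts scaled to the library total and by the trimmed mean of M-values (TMM). Summed marker levels, the pooled Arg2 level and the CPM of 3 counts are scaled to the library total only. In hepatocytes the TMM factors, which divide the levels, were 0.771 to 0.912 in uninjured and 1.08 to 1.18 in injured controls. In knockouts they were 0.931 to 1.07 without CCl4 and 1.155 to 1.32 with it. The libraries hold 3′ tags, so CPM was not divided by gene length. A hepatocyte library held between 931496 and 7535053 counts, and 3 counts stood for 0.398 to 3.22 CPM there. A macrophage library held between 596380 and 5128587, and 3 counts stood for 0.585 to 5.03 CPM. The numbers of the deposited sequencing files fall into 2 series, and all knockout libraries are in the second. The 12 hepatocyte markers were at 8.55% to 14.1% of counts in hepatocyte libraries and 0.0754% to 4.54% in macrophage libraries. For the hepatocyte library numbered 15 and the macrophage library numbered 11, both labelled control with CCl4, another label says knockout. They were kept as controls, and the tests of the members that use them are also given without them.

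The stretches ahead of 4 members are shown because these genes behaved differently below: Otc and Ass1 were among those that fell most after CCl4, while Nags and Slc25a13 passed the test in no comparison within hepatocytes. Each is the 250 bases before the gene's start in RefSeq on GRCm38.p6. Capitals mark the letters TGACG, the core letters of a cyclic AMP response element.
Otc promoter, chrX:10252055-10252304, plus strand: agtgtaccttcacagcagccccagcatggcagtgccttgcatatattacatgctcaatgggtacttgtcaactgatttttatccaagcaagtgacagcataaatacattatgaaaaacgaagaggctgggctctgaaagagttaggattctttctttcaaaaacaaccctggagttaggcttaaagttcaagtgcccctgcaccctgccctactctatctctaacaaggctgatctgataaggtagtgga
Ass1 promoter, chr2:31470020-31470269, plus strand: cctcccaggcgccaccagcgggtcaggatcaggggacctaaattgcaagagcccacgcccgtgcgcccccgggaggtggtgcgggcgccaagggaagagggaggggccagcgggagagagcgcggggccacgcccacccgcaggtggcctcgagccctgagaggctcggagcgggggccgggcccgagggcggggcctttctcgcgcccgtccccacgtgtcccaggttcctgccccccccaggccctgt
Nags promoter, chr11:102145263-102145512, plus strand: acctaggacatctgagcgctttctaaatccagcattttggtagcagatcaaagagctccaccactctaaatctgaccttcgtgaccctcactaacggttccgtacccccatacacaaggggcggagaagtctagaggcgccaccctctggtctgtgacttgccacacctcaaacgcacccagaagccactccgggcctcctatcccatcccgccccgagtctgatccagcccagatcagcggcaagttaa
Slc25a13 promoter, chr6:6217174-6217423, minus strand: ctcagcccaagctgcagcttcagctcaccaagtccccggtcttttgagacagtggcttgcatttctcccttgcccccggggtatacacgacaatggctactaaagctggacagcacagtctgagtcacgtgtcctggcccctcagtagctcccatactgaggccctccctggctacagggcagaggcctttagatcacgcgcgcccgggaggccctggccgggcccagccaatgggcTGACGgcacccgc

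RefSeq windows were matched for 5 members, Slc25a15 with a pair of starts, and these 6 windows were searched on both strands for 7 letter patterns. The core TGACG stood in 1 of the 6, that of Slc25a13, 13 to 9 bases before the start, and in 17.8% of 32851 windows of the same length. No match was found for the full element TGACGTCA (1.55% of all windows), the C/EBP pattern TTGCNNAA (9.56%), the HNF4 pattern CAAAGTCCA (0.384%), the glucocorticoid receptor's paired pattern (0.387%), the TEAD pattern GGAATG (12.6%) or the TATA box TATAAA (12.4%). TGACG is itself part of TGACGTCA. A match describes letters and not a site of binding. The share of G and C was 43.6% for Otc, 55.6% for Nags, 62.8% for Slc25a13, 75.6% for Ass1 and 57.6% and 80.4% for the 2 windows of Slc25a15, against a median of 52.4% over all windows. Asl, Arg1, Cps1, Gls2 and Arg2 had no entry in the promoter table.

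In GENCODE on GRCm38 the members lie on 9 chromosomes, and only Arg1 and Gls2 share one. Cps1 spans chr1:67123026-67231259, Ass1 chr2:31470207-31520672, Asl chr5:130011258-130029247, Slc25a13 chr6:6041218-6217173 and Slc25a15 chr8:22375551-22398597. Arg1 lies at chr10:24915221-24927484, Gls2 at chr10:128194457-128210004, Nags at chr11:102145513-102149477, Arg2 at chr12:79130777-79156301 and Otc at chrX:10252305-10321024. All 10 are annotated as protein coding. The RefSeq starts used for the windows above differ from these spans for Ass1 and for 1 start of Slc25a15. The Ass1 window, which ends at 31470269, reaches into the GENCODE span. The Slc25a15 window at chr8:22398278-22398527 lies within it.

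In hepatocytes of controls without CCl4, Arg1 (2506 ± 606 CPM, SD, n = 6) and Cps1 (2452 ± 592) stood highest and differed by less than their spread. Ass1 followed at 796 ± 272 and Otc at 610 ± 128, with overlapping ranges. Gls2 (464 ± 66.7), Slc25a15 (433 ± 91.7), Asl (306 ± 86.9) and Slc25a13 (274 ± 65.0) came next, and the ranges of neighbours in this order overlapped. Nags was far lower at 53.7 ± 11.5, and Arg2 had 0 counts in 6 of 6 libraries. Arg1 and Cps1 lay above every other member, and Nags below every other but Arg2, with no overlap.

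After CCl4, Otc, Ass1 and Asl, the middle enzymes of the cycle, and the glutaminase Gls2 fell 3.58- to 4.05-fold in control hepatocytes. The ornithine carrier Slc25a15 fell less, and Cps1 and Arg1, the first and last enzymes, did not pass the test. Of the 9 members that passed the filter on low counts (Arg2 did not), 5 fell and 0 rose at an adjusted p under 0.05 in edgeR's quasi-likelihood test with Benjamini-Hochberg adjustment. Of all 9679 genes tested in this comparison, 13.7% were called lower and 13.7% higher (27.4% in either direction). The median log2 fold change was -0.92 over the 9 members and -0.01 over all genes tested. Fewer periportal cells in the preparation and less RNA per cell cannot be told apart in such bulk libraries.

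Asl, which splits argininosuccinate into arginine and fumarate, had 217.71, 248.47, 267.0, 274.78, 396.71 and 432.12 CPM in the 6 control libraries without CCl4 and 57.757, 62.389 and 105.45 in the 3 with it. The groups did not overlap. Asl fell 4.05-fold (log2 fold change -2.02, SE 0.312, adjusted p = 6.14e-05).

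Ass1, the enzyme before it, ranged from 498 to 1203 CPM without CCl4, with a median of 716, and stood at 178, 218 and 228 with it. The highest injured library was below every uninjured one. The fall was 3.82-fold (log2 fold change -1.93, SE 0.337, adjusted p = 0.000225).

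Otc, which makes citrulline, ranged from 471 to 835 CPM (median 573) without CCl4. The 3 injured libraries lay close together at 165.9, 167.04 and 173.76. The fall was 3.61-fold (log2 fold change -1.85, SE 0.296, adjusted p = 8.60e-05), with no overlap.

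Gls2, the liver glutaminase that feeds ammonia to Cps1, ranged from 380.2 to 560.2 CPM (median 446) without CCl4 and was at 86.1, 144 and 158 with it. It fell 3.58-fold (log2 fold change -1.84, SE 0.331, adjusted p = 0.000320). The ornithine carrier Slc25a15 fell less, from 351 to 576 CPM (median 389) to 177, 203 and 307 (log2 fold change -0.92, SE 0.268, adjusted p = 0.0137). Its groups did not overlap after TMM scaling. By library totals alone they did, with injured library 12 at 328 CPM, above uninjured libraries 2, 6, 7 and 19 (287 to 326). Without library 15, whose labels conflict, the value for Slc25a15 was -0.84 with an adjusted p of 0.0671, and without library 16 it was -0.77 with 0.0765.

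Cps1, the entry enzyme, did not pass the test. It ranged from 1820 to 3411 CPM (median 2251) without CCl4 and was at 1121, 1173 and 2374 with it (log2 fold change -0.66, SE 0.279, adjusted p = 0.0872). The high value was library 12, and without it the value was -1.10 with an adjusted p of 0.0117. Cps1 also passed in limma voom (-0.73, adjusted p = 0.0381), and without library 15 its value was -0.49 (adjusted p = 0.313). Library 12 was also the highest injured control for Arg1, Asl, Ass1, Slc25a15, Nags and Gls2.

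Arg1, the last enzyme, ranged from 1854 to 3617 CPM (median 2447) without CCl4 and was at 1236, 1442 and 2230 with it (log2 fold change -0.61, SE 0.302, adjusted p = 0.141). Slc25a13 went from 186 to 363 CPM (median 269.8) to 181, 209.8 and 226, which overlap (log2 fold change -0.42, SE 0.206, adjusted p = 0.141). For Nags the groups lay on top of each other, at 38.9 to 72.1 CPM and at 45.4, 47.1 and 62.0 (log2 fold change -0.04, 95% interval -0.46 to 0.37, adjusted p = 0.907).

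Without library 15 the falls in edgeR were -1.86 for Asl (adjusted p = 0.00114), -1.97 for Ass1 (adjusted p = 0.00204), -1.88 for Otc (adjusted p = 0.000954) and -1.92 for Gls2 (adjusted p = 0.00216) on the log2 scale. Arg1 (-0.53, adjusted p = 0.326), Slc25a13 (-0.50, adjusted p = 0.170) and Nags (0.02, adjusted p = 0.973) again did not pass.

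**Figure D1:**
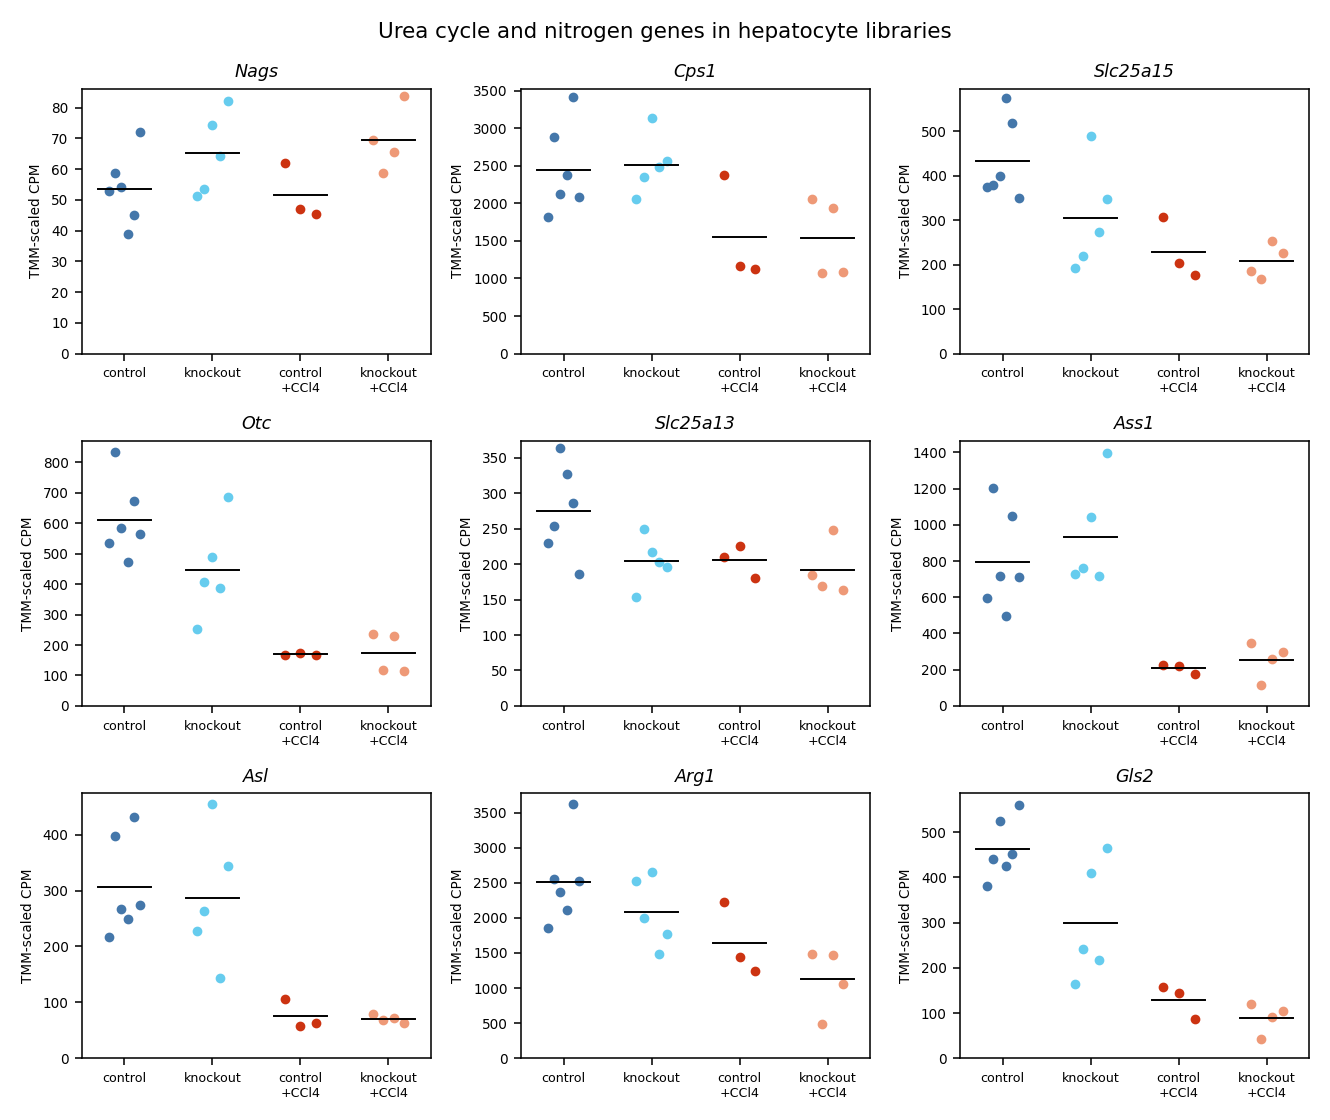
TMM-scaled CPM (vertical axis, linear from 0) of 9 members in each hepatocyte library, 1 point per library, with the group mean as a bar; the groups are control and knockout without and with CCl4 (n = 6, 5, 3 and 4). After TMM scaling Otc, Ass1, Asl and Gls2 sit lower in each library with CCl4 than in any library without it. Cps1 and Arg1 overlap between treatments in controls, and Nags stays within 38.9 and 83.9 CPM throughout. By library totals alone, injured knockout library 13 was above uninjured knockout library 4 for Otc (279 against 269 CPM). For Ass1 it was above uninjured control library 8 (409 against 386).

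The same 4 genes were low after CCl4 in the hepatocytes of knockout mice. Here 5 of 9 members fell and 0 rose, where 6.84% of all genes tested were called lower, 7.02% higher and 13.9% in either direction, and the members' median log2 fold change was -0.89 against -0.02 over all genes. Asl went from 144, 228, 264, 344 and 454 CPM to 63.7, 68.1, 72.2 and 78.8, a fall of 4.06-fold (log2 fold change -2.02, SE 0.290, adjusted p = 0.000102). The 4 injured knockout libraries lay close together, below every uninjured one.

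Ass1 went from 720.4, 729.6, 761.5, 1043.8 and 1399.1 CPM to 113.06, 258.0, 299.45 and 345.35, a fall of 3.66-fold (log2 fold change -1.87, SE 0.308, adjusted p = 0.000366). Gls2 fell 3.32-fold (log2 fold change -1.73, SE 0.307, adjusted p = 0.000758), from 164 to 464 CPM to between 43.4 and 121. Neither gene overlapped between treatments.

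Otc fell 2.56-fold (log2 fold change -1.35, SE 0.268, adjusted p = 0.00177), from 253, 388, 408, 489 and 687 CPM to 115, 117, 230 and 235. By library totals its groups overlapped, with injured library 13 (279 CPM) above uninjured library 4 (269). The knockout libraries with CCl4 formed a low and a high pair for this gene, while the 3 injured controls lay between them. Cps1 split the same 4 libraries similarly, at 1068 and 1092 CPM in libraries 14 and 18 and at 1935 and 2055 in libraries 17 and 13, against 2060 to 3132 without CCl4. The value for Cps1 was -0.71 (SE 0.261, adjusted p = 0.0762). After TMM scaling the groups were apart only by 2055.4 against 2059.7 CPM. By library totals they overlapped, with injured libraries 13 (2436 CPM) and 17 (2214) above uninjured library 4 (2184). Cps1 passed in limma voom (-0.76, adjusted p = 0.0447) and, in edgeR, without library 13 (-0.89, adjusted p = 0.0462).

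Arg1 was called here as well (log2 fold change -0.89, SE 0.285, adjusted p = 0.0410), from 1484 to 2652 CPM to 487, 1060, 1468 and 1489, a small overlap. That call was kept in 10 of 18 alternative analyses and lost in the others, in which the value was between -0.64 and -0.92. It was lost without any of libraries 4, 5, 10, 14, 18 and 21, with adjusted p-values from 0.0539 to 0.120. The carrier Slc25a15 had the value -0.54 (adjusted p = 0.167), Slc25a13 -0.09 (adjusted p = 0.803) and Nags 0.10 (adjusted p = 0.779).

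**Figure D2:**
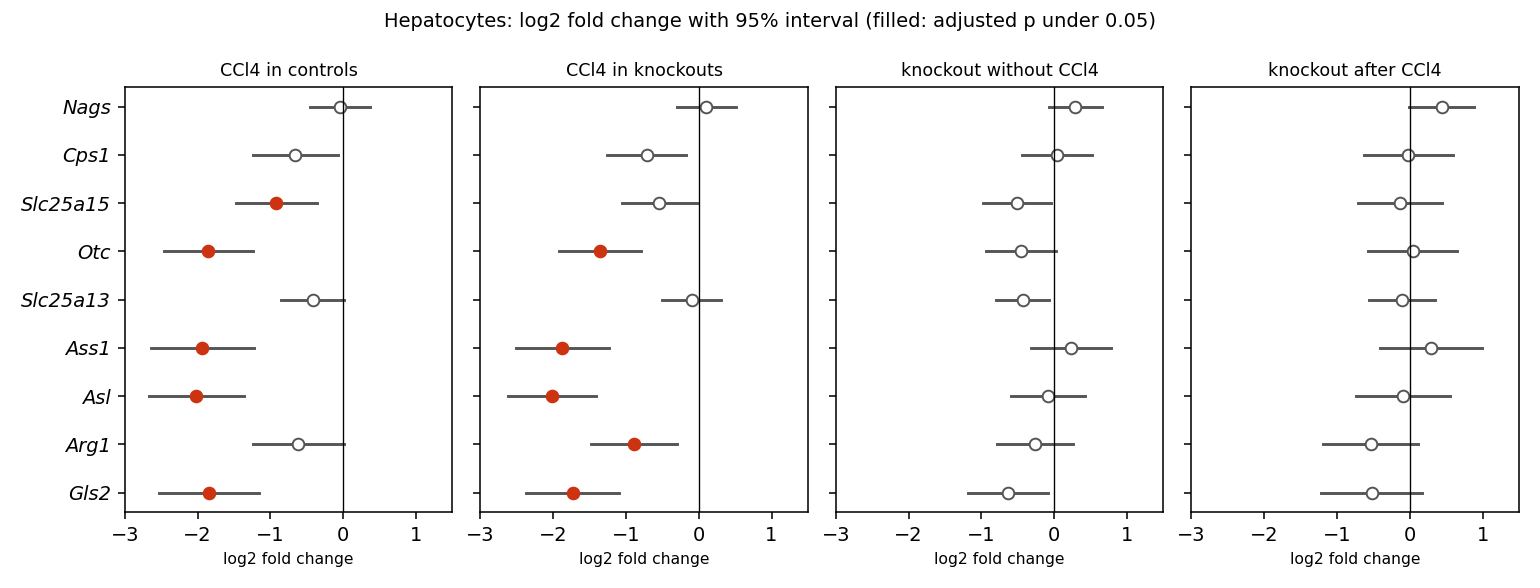
Log2 fold changes (horizontal axis) of 9 members in 4 comparisons of hepatocytes, with 95% intervals as lines; filled points passed an adjusted p of 0.05. The filled points are Slc25a15, Otc, Ass1, Asl and Gls2 for CCl4 in controls and Otc, Ass1, Asl, Arg1 and Gls2 for CCl4 in knockouts, and no point is filled in either comparison of genotypes.

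Whether the effect of CCl4 differed between the genotypes was tested directly. None of the 9 members passed that test in edgeR (0 at an unadjusted p under 0.05, and 0 called by DESeq2 or by limma voom), where 0.217% of all genes did. The interaction on the log2 scale was -0.00 for Asl (95% interval -0.82 to 0.81), 0.06 for Ass1 (-0.82 to 0.94), 0.11 for Gls2 (-0.77 to 0.99) and 0.50 for Otc (-0.29 to 1.28). For Arg1, called in knockouts only, it was -0.27 (-1.12 to 0.57), and for Slc25a15, called in controls only, it was 0.38 (-0.37 to 1.12). These intervals reach as far as 1.28 on the log2 scale, so a difference of that size between the genotypes is within them. Without library 15, 0 members were called, and the interaction was -0.16 for Asl, 0.10 for Ass1, 0.19 for Gls2, 0.52 for Otc, -0.36 for Arg1 and 0.30 for Slc25a15.

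Without CCl4, loss of YAP and TAZ from biliary cells came with no call among the members in hepatocytes. Of 9 members 0 passed in edgeR, by DESeq2 or by limma voom, against 7.87% of all genes in edgeR, and 3 had an unadjusted p under 0.05. These were Gls2 (log2 fold change -0.63, SE 0.262, adjusted p = 0.134), Slc25a15 (-0.51, SE 0.223, adjusted p = 0.153) and Slc25a13 (-0.43, SE 0.176, adjusted p = 0.125).

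Gls2 was at 164, 217 and 243 CPM in knockout libraries 4, 20 and 5, below all 6 controls (380.2 to 560.2), and at 410.03 and 464 in libraries 10 and 21, within them. Slc25a15 had a like split, with library 10 at 489 and the others at 192 to 347, below all controls. Without library 10 Slc25a15 passed the test (log2 fold change -0.75, adjusted p = 0.0361). The values of the cycle's enzymes were 0.04 for Cps1 (95% interval -0.44 to 0.52), -0.46 for Otc, 0.23 for Ass1, -0.09 for Asl, -0.26 for Arg1 and 0.29 for Nags (lowest adjusted p 0.224, for Otc).

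Since 3 of the 6 uninjured controls belong to the first file series, the comparison was repeated within the second. The value was -0.71 for Gls2 (adjusted p = 0.416), -0.47 for Slc25a15 (adjusted p = 0.499) and -0.26 for Slc25a13 (adjusted p = 0.651). The 4 members with the large falls after CCl4 were called again in controls of the second series, which hold 1 injured library, from -2.02 for Otc (adjusted p = 0.0405) to -2.51 for Asl (adjusted p = 0.0108), on the assumption that this library varies like the other groups.

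After CCl4 the genotypes were close for most members, with 0 of 9 called in edgeR (0 at an unadjusted p under 0.05, and 0 by DESeq2 or limma voom), against 0.176% of all genes. Log2 fold changes ran from -0.54 for Arg1 (95% interval -1.20 to 0.12) and -0.52 for Gls2 (-1.21 to 0.16) to 0.29 for Ass1 (-0.41 to 0.99) and 0.44 for Nags (-0.01 to 0.89). Nags was at 58.9, 65.7, 69.5 and 83.9 CPM in the injured knockouts and at 45.4, 47.1 and 62.0 in the injured controls, a small overlap. Without library 15, 0 members were called, and the values were -0.62 for Arg1, -0.44 for Gls2, 0.32 for Ass1 and 0.37 for Nags. Injured control libraries 12 and 15 are in the first file series, and all injured knockouts in the second. With file series as a term the values were -0.66 for Arg1, -0.42 for Gls2, -0.02 for Ass1 and 0.37 for Nags. Within the second series library 16 is the only injured control. There they were -0.17, 0.03, 0.48 and 0.59, in the same order.

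Markers of other cells moved with these groups in the hepatocyte preparations. The summed level of 12 Kupffer cell and macrophage markers was 11.5 to 203 CPM in uninjured controls and 380 to 544 in injured ones, and 6 of the 12 were called higher (median log2 fold change 2.28). In knockout mice it was 132 to 1456 CPM without CCl4 and 171 to 384 with it, and 8 of 12 markers were higher in the uninjured knockouts than in the uninjured controls (median 2.73). The 8 stellate cell and fibroblast markers summed to 11.2 to 420 CPM in uninjured controls and 487 to 1407 in injured ones, with 4 of 8 called higher (median 2.50), and to 155 to 1194 and 280 to 571 in knockouts, with 0 of 8 called. The 7 biliary markers summed to 30.1 to 92.1 and 96.3 to 266 CPM in controls and to 82.6 to 306 and 186 to 332 in knockouts. Of the 5 tested, 2 were called higher after CCl4 in each genotype, 2 in knockouts without CCl4 and 1 in knockouts with it. No marker of these 3 lists was at 0 throughout any of the 4 groups. The 12 hepatocyte markers summed to 85518 to 129800 CPM over both control groups, and their median log2 fold change after CCl4 in controls was -0.22, with 3 lower and 0 higher. All these sums are scaled to library totals without TMM, while the fold changes use TMM. The part of these cells in the members' values was not tested.

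Of 18 genes tested in a list of glutamine, glutamate and ammonia genes, 9 fell after CCl4 in control hepatocytes, 1 rose and 8 did not pass (median -0.96 on the log2 scale), where 13.7% of all genes were called lower and 13.7% higher. The glutamate transporter Slc1a2 had the value -6.67 (SE 0.819, adjusted p = 5.09e-06), glutamine synthetase Glul -4.19 (adjusted p = 1.17e-05) and the amino acid transporter Slc38a4 -1.92 (adjusted p = 5.10e-06).

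Among 13 genes tested for the use of arginine and ornithine, 4 fell and 3 rose (median -0.19). Oat, the pericentral enzyme that turns ornithine toward glutamate, had the log2 fold change -3.69 (SE 0.698, adjusted p = 0.000951), and Oaz1, the antizyme that limits polyamine synthesis, had -0.69 (adjusted p = 0.00381). Spermidine synthase Srm rose, at 1.20 (adjusted p = 0.00193).

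Of 11 regulators tested that are known to act on the cycle or on hepatocyte genes, 5 fell and 0 rose (median -0.56). The glucagon receptor Gcgr had the log2 fold change -0.96 (adjusted p = 0.000940), the transcription factor Cebpa -1.35 (adjusted p = 0.00373) and Klf15, a factor of amino acid breakdown, -2.15 (adjusted p = 0.00608).

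Genes of both ends of the lobule were lower in the same comparison. Of 13 other periportal genes tested, 7 fell and 1 rose (median -1.53), with Pigr, the receptor that carries IgA, at -2.09 (adjusted p = 7.72e-05), histidine ammonia-lyase Hal at -1.56 (adjusted p = 0.000226) and Cyp2f2 at -2.82 (adjusted p = 0.000630). Of 12 pericentral genes 9 fell and 0 rose (median -1.73), with Cyp27a1 at -2.49 (adjusted p = 5.96e-05), Cyp2e1, an enzyme that activates CCl4, at -3.93 (adjusted p = 0.000130) and Lhpp at -2.92 (adjusted p = 0.00198). In knockout mice 6.84% of all genes tested were called lower after CCl4, 7.02% higher and 13.9% in either direction. There the counts were 6 lower and 0 higher of 18 in the ammonia list and 2 and 0 of 13 for arginine and ornithine. They were 1 and 0 of 11 regulators (Cebpa, -0.95, adjusted p = 0.0396), 4 and 1 of 13 periportal genes and 8 and 0 of 12 pericentral genes.

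The same lists were read in knockout hepatocytes without CCl4, where 7.87% of all genes were called in either direction. In the ammonia list 1 of 18 genes fell and 1 rose. The gene that fell, Car5a, the mitochondrial carbonic anhydrase that supplies bicarbonate to Cps1, had the log2 fold change -1.48 (SE 0.302, adjusted p = 0.00702). In the arginine and ornithine list 2 of 13 fell and 2 rose, with Sat1, which acetylates polyamines, at 1.32 (adjusted p = 0.00204), Oaz1 at -0.67 (adjusted p = 0.00845) and Agmat at -0.82 (adjusted p = 0.0102). Of the other periportal genes 1 of 13 fell, Hal, at -0.78 (adjusted p = 0.0353). Neither the 11 regulators nor the 12 pericentral genes held a call, and the lowest p among the regulators was that of the glucocorticoid receptor Nr3c1 (-0.54, adjusted p = 0.0578) and among the pericentral genes that of Cyp2e1 (-0.86, adjusted p = 0.214).

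Over the 18 hepatocyte libraries the members varied together to different degrees. The correlation of a member's log2 CPM with the mean of the 9 standardised profiles, which includes the member itself, was 0.95 for Gls2, 0.94 for Otc, 0.93 for Asl, 0.92 for Ass1 and 0.89 for Cps1. It was 0.58 for Slc25a13 and 0.04 for Nags. The genes outside the set with the highest correlation to that mean were Abat (0.958), Man1a (0.956), Aass (0.956), Cth (0.955) and Sardh (0.952). The libraries share their treatment groups, so these are descriptions without a test.

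In the macrophage libraries 9 of the members were far lower than in hepatocytes, and Arg2 was the exception. In a joint fit over 12052 genes the uninjured control macrophages had lower levels of 9 members. Of all genes, 28.5% were called lower, 34.3% higher and 62.8% in either direction. Arg2 was called higher, but it passed the filter on low counts there only through macrophage libraries. Its call is therefore no support, and its counts are given below. Log2 differences of the 9 lower members ran from -1.86 for Arg1 (SE 0.490, adjusted p = 0.00148) to -3.42 for Slc25a13 (SE 0.423, adjusted p = 4.00e-08). The 12 hepatocyte markers were all lower as well, with a median of -3.11. The median over all genes was 0.14 with TMM and 0.20 with relative log expression (RLE) factors, both in edgeR.

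Because hepatocyte RNA was present in every macrophage library, the members were also set against the counts of the 12 hepatocyte markers in the same library. For Cps1 this gave a median of 18.8 counts per 1000 marker counts over hepatocyte libraries and 16.4 over macrophage libraries, and 0 of 16 macrophage libraries exceeded the highest hepatocyte library. Ass1 (5.08 and 4.33), Otc (3.13 and 2.51), Gls2 (1.94 and 1.42) and Nags (0.478 and 0.487) likewise had like medians over all libraries of the 2 cell types. In uninjured controls alone the medians were 18.5 and 22.4 for Cps1, 5.82 and 8.06 for Ass1, 4.66 and 4.54 for Otc, 3.58 and 4.91 for Gls2 and 0.388 and 0.371 for Nags. There Ass1 and Gls2 exceeded the highest hepatocyte library in 2 of 4 macrophage libraries, and Cps1, Otc and Nags in 1 of 4. Albumin, 1 of the 12 markers, was at 476 and 448.

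Arg1 differed from these. Its median was 15.4 per 1000 marker counts in hepatocyte libraries and 34.5 in macrophage libraries, of which 11 of 16 exceeded the highest hepatocyte library at 27.7. In the macrophages of uninjured controls the values were 30.6, 38.7, 53.9 and 59.5, against 13.4 to 26.6 in the hepatocytes of the same group. The highest values, 198 and 183, were those of injured control libraries 16 and 15, which held the smallest shares of hepatocyte markers (0.0754% and 0.145% of counts).

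The same pair of libraries stood highest for Slc25a13, at 49.7 and 13.7 per 1000, and for Asl, at 16.97 and 13.7, while hepatocyte libraries did not exceed 2.96 and 3.77. Slc25a13 exceeded the highest hepatocyte library in 6 of 16 macrophage libraries and Asl in 3 of 16. Slc25a15 did so in 4 of 16 (up to 11.3 against 5.21) and Nags in 3 of 16 (up to 2.74 against 0.997). Gls2 did so in 2 of 16 and Otc in 1 of 16. In CPM, Slc25a13 was 37.3 in library 16 and 20.96 in library 15, within the range of the uninjured control macrophages (29.3 to 61.3) for the first and below it for the second.

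**Figure D3:**
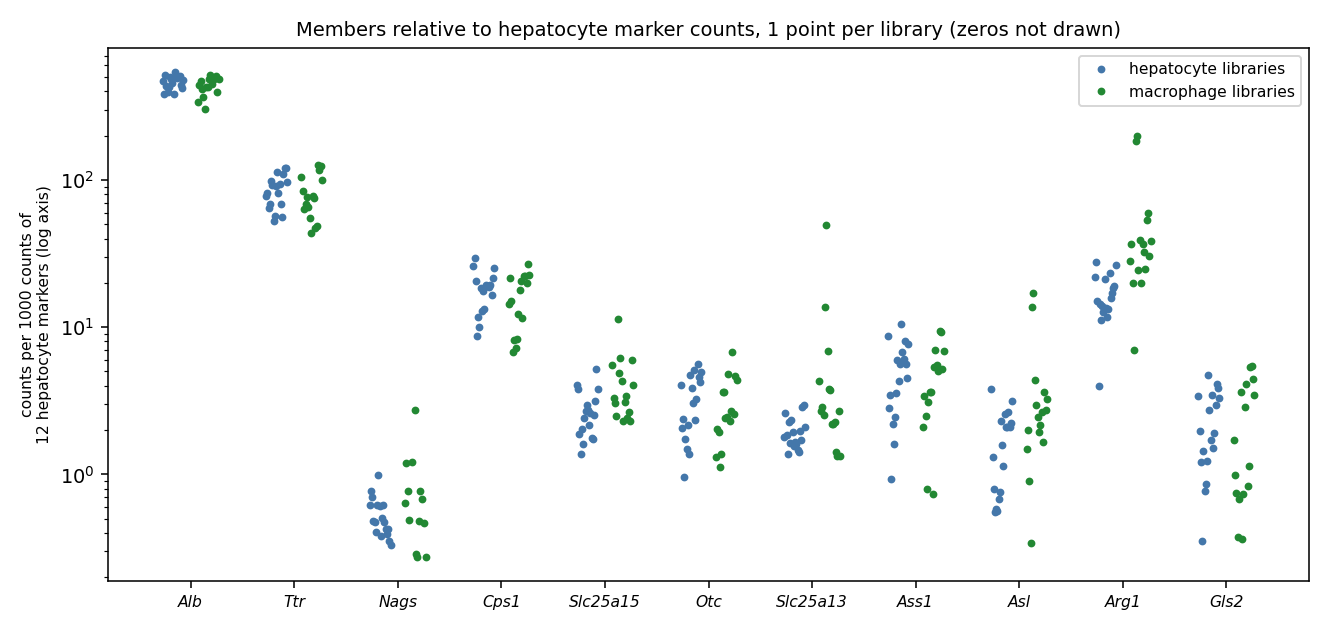
Counts of each gene per 1000 counts of 12 hepatocyte markers (vertical axis, log scale), 1 point per library, with hepatocyte libraries (n = 18) on the left and macrophage libraries (n = 16) on the right of each pair; values of 0 are not drawn. Alb and Ttr are themselves among the markers. Cps1, Otc, Ass1 and Gls2 cover like ranges in both cell types, and Arg1 lies higher in 11 of 16 macrophage libraries than in any hepatocyte library.

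Arg2, the arginase of other tissues, was a gene of the macrophage libraries. It had 138 counts over 15 of 16 macrophage libraries and 5 counts over 2 of 18 hepatocyte libraries. In uninjured control macrophages it was at 1.73, 6.39, 8.76 and 14.1 CPM, and it had 0 counts in the 6 hepatocyte libraries of that group. Set against a floor of 3 counts over the whole hepatocyte group, the pooled macrophage level of 6.52 CPM was at least 50.0-fold higher, for counting error only.

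After CCl4 in control macrophages 4 of 10 members fell, where 6.39% of all genes tested were called lower, 6.77% higher and 13.2% in either direction. These were Gls2 (log2 fold change -3.30, SE 0.683, adjusted p = 0.00540), Otc (-2.87, SE 0.743, adjusted p = 0.0203), Asl (-1.58, SE 0.457, adjusted p = 0.0301) and Ass1 (-2.89, SE 0.888, adjusted p = 0.0460). The share of the 12 hepatocyte markers was 1.96% to 2.18% of counts in the uninjured libraries and 0.0754%, 0.145%, 1.24% and 2.22% in the injured ones, none of these markers was at 0 in either group, and their median log2 fold change was -1.17 with 0 of 12 called. The 6 monocyte markers summed to 179.8 to 322 CPM without CCl4 and 479 to 966 with it (3 of 6 called higher, median 1.59), and the 12 Kupffer cell and macrophage markers to 15492 to 20757 and 10296 to 16903 (3 of 12 called lower, median -0.69), with no marker of either list at 0. The part of hepatocyte RNA or of these cells in the falls was not tested.

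Cps1 followed the order of that share among the 4 injured control libraries but not among the 4 uninjured ones. In rising order of share it was at 504, 608, 497 and 547 CPM without CCl4. With CCl4 it was at 5.46, 12.6, 168 and 451, in the same order of share. The test gave -1.78 on the log2 scale (SE 1.04, adjusted p = 0.282). Set against the marker counts as above, the median of Cps1 was 22.4 without CCl4 (20.1 to 26.9) and 11.3 with it (7.27 to 21.6). Gls2 was at 76.0, 100.06, 122 and 149 CPM without CCl4 and at 1.05, 2.73, 19.8 and 20.8 with it, with no overlap. Without library 11, whose labels conflict, only Gls2 was called (-3.97, adjusted p = 0.00756), and Otc (-2.90), Ass1 (-2.89) and Asl (-1.44) had adjusted p-values of 0.0588, 0.105 and 0.0820, while Cps1 had -1.81 (adjusted p = 0.382). Otc was also not called without library 6 or 16, Asl without 7, 9, 15 or 16, and Ass1 without 6, 7, 8, 9, 15 or 16, with adjusted p-values between 0.0517 and 0.110.

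Arg1 in macrophages was at 691, 854, 1217 and 1624 CPM in uninjured controls, 112, 261, 411 and 492 in uninjured knockouts, 148, 280, 326 and 768 in injured controls and 106, 166, 273 and 844 in injured knockouts. All 4 uninjured controls were above all uninjured knockouts, and the other 3 groups overlapped with each other. The log2 fold change was -1.53 after CCl4 in controls (SE 0.633, adjusted p = 0.124; -1.46 and 0.227 without library 11, -2.11 and 0.0486 without library 12) and -1.78 in knockouts without CCl4 (SE 0.638, adjusted p = 0.276). Hepatocyte markers were at 0.563% to 1.87% of counts in the uninjured knockout macrophages, below all uninjured controls.

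Arg2 was level between the genotypes without CCl4, at 6.47, 7.81, 8.19 and 9.10 CPM in knockouts, and differed by 0.03 on the log2 scale (95% interval -1.13 to 1.20). With CCl4 it was at 0.310, 3.64, 4.15 and 6.81 CPM in controls and at 0, 0.448, 1.55 and 1.97 in knockouts, that is 22 and 4 counts in all. In knockouts Arg2 did not overlap between treatments (log2 fold change -3.23, SE 0.897, adjusted p = 0.0955), and this difference did not pass the test. In controls the value was -1.20 (SE 0.639, adjusted p = 0.223), and the interaction was -2.04 (95% interval -4.47 to 0.40, adjusted p = 0.504). Without library 11 Arg2 did not pass the filter on low counts. Most of these levels lie near the 0.585 to 5.03 CPM for which 3 counts stand.

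**Figure D4:**
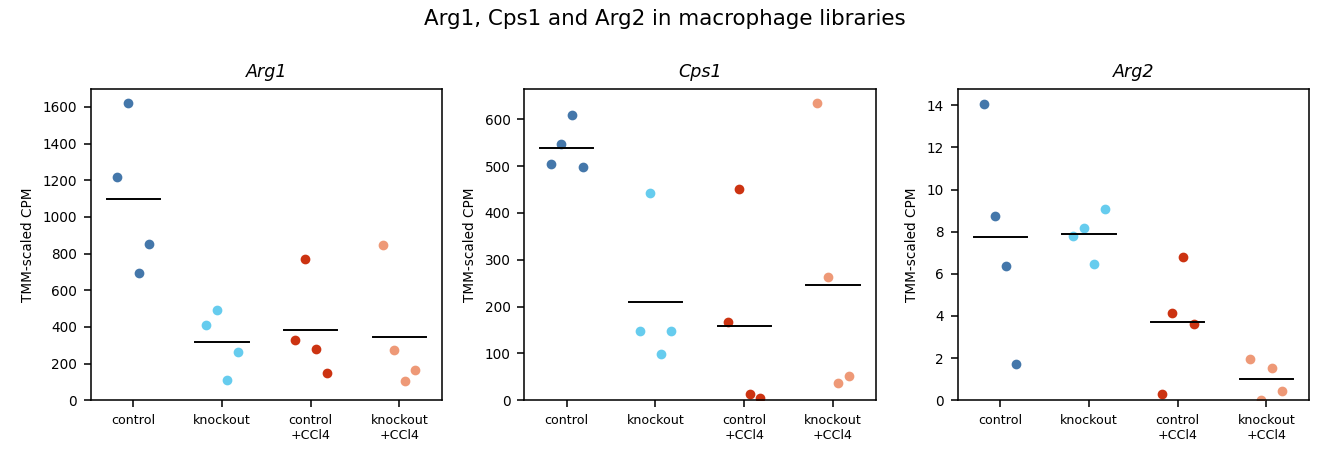
TMM-scaled CPM (vertical axes, linear from 0, each with its own range) of Arg1, Cps1 and Arg2 in macrophage libraries, 1 point per library with the group mean as a bar, n = 4 in each of the 4 groups. Arg1 and Cps1 lie higher in all 4 uninjured controls than in any uninjured knockout, the highest Cps1 value (634 CPM) is that of an injured knockout, and Arg2 is at 6.47 to 9.10 CPM in uninjured knockouts and at 0 to 1.97 in injured ones.

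None of the 10 members passed the test in the other comparisons of macrophages by edgeR. This holds for CCl4 in knockouts (0.878% of all genes called, 2 members at an unadjusted p under 0.05), knockout without CCl4 (0.166%, 4 members), knockout after CCl4 (0.0647%, 0 members) and the interaction (0.194%, 3 members). Without library 11 no member was called in knockouts after CCl4 or for the interaction. Without a filter on low counts edgeR called 2, 7, 1 and 6 members in these comparisons, in the order given. DESeq2 and limma voom each called 1 member in the knockouts without CCl4, Gls2, and 0 in the other 3 comparisons. Gls2 was at 10.7, 16.2, 22.5 and 29.2 CPM in those knockouts, below all 4 controls (76.0 to 149), and its value was -2.53 (log2 fold change, SE 0.653, adjusted p = 0.125 in edgeR, 0.0499 in DESeq2 and 0.0233 in limma voom).

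Over the 16 macrophage libraries the genes with profiles most like Arg1 by Pearson's correlation of log2 CPM were Slc25a25 (0.908), Ugt2a3 (0.879), Gm4788 (0.870), Slc39a14 (0.869) and Cyp2b9 (0.866). Those most like Arg2 were Wdr13 (0.860), Ndufb6 (0.838), Spred2 (0.834), Coq10b (0.821) and Mir22hg (0.817). The 2 lists share no gene. These libraries differ in depth and in their share of hepatocyte RNA, and the correlations are given as descriptions.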

How the data were processed

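Hepatocytes and F4/80 and CD45 positive cells were profiled with QuantSeq 3′ libraries read at 50 bp, per the labels' protocols. Trimmomatic 0.39 and HISAT2 2.1.0 on GRCm38/mm10 are named in the submitters' processing notes. Each deposited table holds the authors' unnormalised counts by gene symbol, 1 column per library; the counter, the annotation and whether strand was used were not given in the sources used here, so a gene and an antisense partner cannot be told apart. Groups follow the genotype and treatment labels. No library was a copy of another: within groups, chi-square over degrees of freedom was 5.16 to 42.5 for each pair.

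Counts were fitted in R 4.3.3 with edgeR 4.0.16 (filterByExpr, TMM, robust quasi-likelihood with the newer deviance adjustment), 1 fit of 4 groups per cell type and 1 joint fit, with Benjamini-Hochberg adjustment over all genes tested and a call at 0.05. SE, an approximation, was taken as log2 fold change divided by √F. DESeq2 1.42.0 and limma 3.58.1 served as alternatives. Correlations use log2 CPM with a prior count of 2 and genes of at least 10 CPM. The fit was tested on simulated counts. File series were split at the widest gap in file numbers, 14 to 25. The floor is 3 counts and covers counting error only.

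The members and gene lists were chosen with earlier results of these data known. All members are named; from each list, up to 3 called genes of lowest p per main comparison, or up to 2 where none is called. For 1 gene of the ammonia list, counted with that list, the result is not reported here.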

Additional observations from a re-analysis of the deposited data

Results flagged for a closer look

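Of 68 groups of 4 to 6 libraries tested for a library far from the rest, 2 held one, where chance alone gives about 1 in 20. In macrophages of knockout mice without CCl4, Cps1 was at 443.39 CPM in library 5 and at 148.48 CPM or less in the other 3. That library also held the largest share of hepatocyte markers in its group, 1.87% of counts, and the part of hepatocyte RNA was not tested. In hepatocytes of knockout mice without CCl4, Arg2 was at 1.2734 CPM in library 5, which is 2 counts, and at 0 in the other 4.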

How the results depend on the processing

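In hepatocytes Otc, Ass1, Asl and Gls2 were called lower after CCl4 in 18 of 18 alternatives in each genotype. Over these comparisons 4 to 6 members were called. Knockout without CCl4 in hepatocytes gave 0 to 1 called members over the libraries left out in turn, the 1 being without knockout library 10. No member was called in any alternative of knockout after CCl4 or of the interaction in hepatocytes. In macrophages the number called after CCl4 in controls was 1 in the second file series alone, 1 without the library whose labels conflict and 1 to 5 when single libraries were left out. Without a filter on low counts it was 7, with 2 for CCl4 in knockouts, 7 for knockout without CCl4, 1 for knockout after CCl4 and 6 for the interaction. For knockout without CCl4 it was 1 by DESeq2, 1 by limma voom and 4 when only the groups compared were fitted. The cause of these changes was not tested. Over all comparisons, 24 called values of members met 378 alternatives, of which 341 kept the call, 37 lost it and 0 reversed. The 81 uncalled values met 1513, of which 31 were called and 102 changed sign without a call. The earlier form of the quasi-likelihood fit was added after seeing the data. With the mouse number as a replicate block, the comparison of macrophages with hepatocytes called 10 members, as without it. Arg2 is among these 10 and passed the filter on low counts only through macrophage libraries. Same-numbered libraries of the 2 cell types correlated between -0.11 and 0.31, with 7 of 15 pairs over 0.1, so the numbers were not taken as pairs. Depth limits Arg2 most, with at most 29 counts in a library.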
